A study of Homo sapiens with 6 samples.

Results

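Homologous recombination and the Fanconi anemia pathway were followed at the transcript level in BT-549 cells, an established human triple-negative breast cancer (TNBC) cell line, with and without silencing of IRF1. The genes were taken by name, as a list of 35 recombination, Fanconi and checkpoint genes, and all 35 were found among the 37887 gene symbols of the count table. IRF1 is the transcription factor that drives many interferon-stimulated genes, and the work that produced the data asked how interferon signaling is tied to resistance against DNA damage. The control group held 3 samples given 0.1% DMSO, and the IRF1shRNA group held 3 samples given 500 ng/ml doxycycline. According to the series description, both groups were the same cells carrying a tetracycline-inducible IRF1 short hairpin RNA (shRNA), whereas the sample titles call the first group a control shRNA. The titles name no drug, but by the treatments given above doxycycline went to the silenced samples alone. Effects of the drug, of the hairpin and of IRF1 loss therefore cannot be told apart. A single hairpin in a single cell line was used, and the duration of treatment is not given in the sources used here.

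Homologous recombination repairs broken DNA by copying the sister chromatid and is therefore used in S and G2 phase. MRE11, RAD50 and NBN open the break with RBBP8 (CtIP), EXO1 and the helicases BLM and WRN extend the single strand, and BRCA1-BARD1, PALB2 and BRCA2 prepare it to invade the intact copy. The Fanconi core complex marks the FANCD2-FANCI clamp with ubiquitin when a crosslink blocks a replication fork, and the kinases ATM and ATR signal damage through CHEK2 and CHEK1. In breast cancer the pathway is best known because tumors that have lost BRCA1 or BRCA2 are often sensitive to inhibitors of PARP. BT-549 cells carry wild-type BRCA1 per the study's methods.

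Silencing IRF1 was accompanied by small decreases in many of these 35 transcripts. Of the 35 genes, 20 were lower and 4 were higher in IRF1shRNA samples at the 0.05 threshold of edgeR (quasi-likelihood test, Benjamini-Hochberg adjusted), while 11 did not pass. Of 56 other recombination and Fanconi genes tested, 13 were called lower and 23 higher. The decrease therefore describes this list and not the pathway as a whole. Among all 18851 genes tested, 26.4% were called lower and 24.1% higher, and 50.5% were called in either direction. Among the 8879 genes within the range of mean levels spanned by the 35 genes, 36.2% were called lower and 29.8% higher. The median log2 fold change was −0.19 over the 35 genes and −0.0024 over all genes tested. No member changed by more than 2-fold, and the values ran from −0.71 for FANCF to 0.51 for RAD52, whereas 7.86% of all genes passed the threshold with over 2-fold change. A decrease of at least 0.5 on the log2 scale was called for 5 members (FANCF, EXO1, BLM, BARD1 and C1orf112) and an increase of that size for 1 (RAD52), against 12.1% and 9.2% of all genes. For 25 of the 35 genes every silenced sample lay on one side of every control, 21 of them below, where 56.8% of all genes did not overlap and 29.5% did so with a lower level. CPM here is the count of a gene per 1000000 counts of its library after scaling by the trimmed mean of M-values (TMM), and an error given with a CPM value is the SD over 3 samples. An error given with a log2 fold change is its SE from edgeR, and intervals are at 95%. Because RNA was extracted in bulk, fewer cells in S phase and less RNA per cell cannot be told apart.

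**Figure D1:**
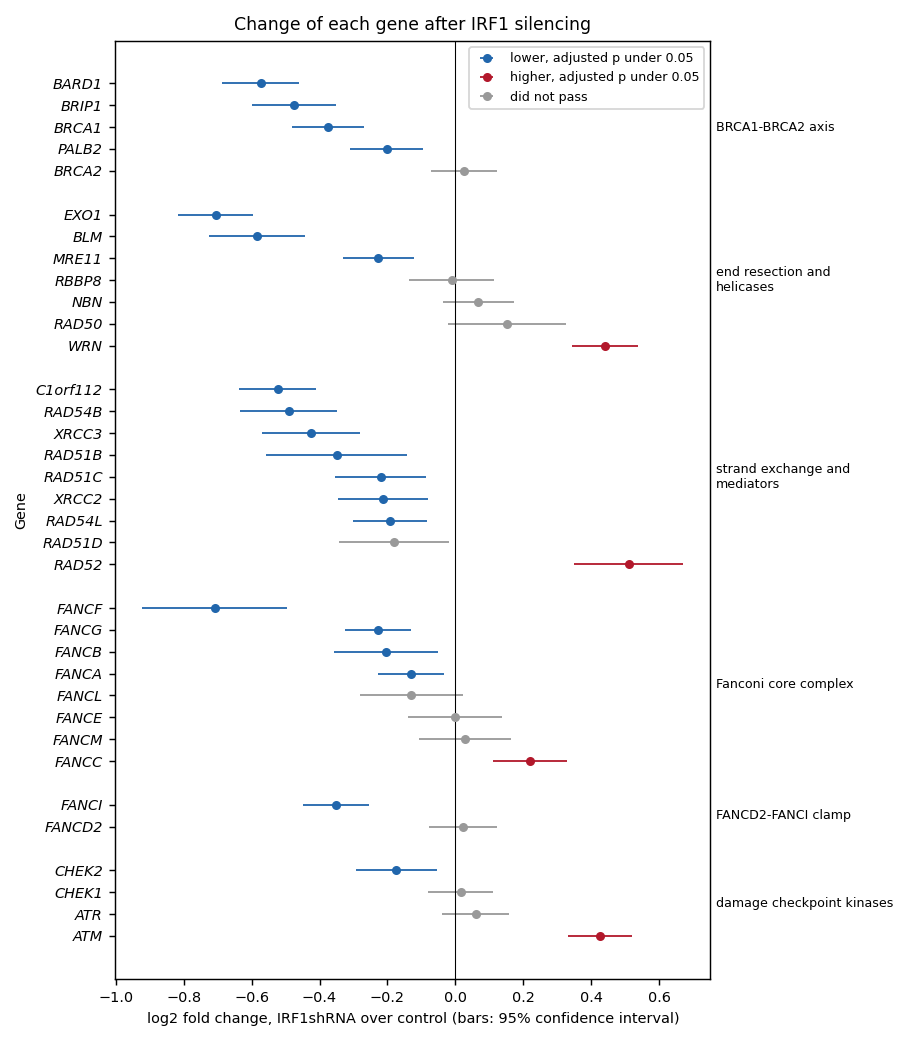
Log2 fold change (IRF1shRNA over control, x axis) of the 35 genes (y axis), ordered by role; points are estimates and bars 95% confidence intervals, in blue for the 20 genes called lower, red for the 4 called higher and gray for the 11 that did not pass. The 20 blue points lie between −0.71 and −0.13, and the 4 red points lie between 0.22 and 0.51.

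The targeted gene was checked first. IRF1 read 45.3, 48.1 and 51.5 CPM in the controls, in replicate order, against 13.8, 14.9 and 14.6 CPM after silencing, and 29.9% of the control mean remained. Library totals ran from 55143808 to 160436234 counts, with IRF1shRNA replicate 2 the smallest, and counts of the 35 genes made up between 0.156% and 0.169% of each library. Mesenchymal transcripts were abundant, with VIM at 918 ± 28.6 CPM in controls and 625 ± 32.9 CPM after silencing, whereas EPCAM, ESR1, PGR and GATA3 each stayed at or below 0.325 CPM in every library and ERBB2 was at 50.8 and 36.4 CPM. Markers of leukocytes (PTPRC, CD3E), endothelium (PECAM1) and liver (ALB) did not exceed 0.757 CPM in any library, with a summed level of 0.604 to 0.644 CPM in controls and 0.857 to 1.04 CPM after silencing, of which ALB rose from 0.0693 to 0.340 CPM. The replicates are described as separate cultures, and p-values measure the spread between these cultures of one cell line.

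The promoters of the genes were read for the sequence bound by IRF factors and for that bound by E2F factors, which drive genes of S phase. RefSeq promoters (GRCh38.p14), 250 bases before to 50 bases after the start site, were matched for 31 of the 35 genes, all but NBN, WRN, RAD54B and FANCI. A single start site was read per gene, and for some genes it lies inside the annotated gene, so promoters at other start sites were not read. Examples are RAD51B (window chr14:67823291-67823590, gene from 67819779) and, on the minus strand, FANCC (window chr9:95317660-95317959, gene from 95426796). The core of the interferon-stimulated response element, read as GAAA, any 2 bases and GAAA again on either strand, was found in 0 of these 31 promoters and in 3.57% of all 35116 promoters of that length. An E2F site (TTTCCCGC, TTTGGCGC or TTTCGCGC on either strand) was found in 4 of the 31 promoters (12.9%) and in 2.74% of all promoters. The set of all promoters was not limited to genes expressed in these cells, as the 31 are, and the difference was not tested. The short CHR element of genes expressed in G2 and mitosis, TTTGAA on either strand, was found in 4 of the 31 (BRIP1, C1orf112, FANCC and ATM) and in 15.2% of all. A match is a run of letters and not a measured binding site, and its absence from this window says nothing of sites elsewhere. The 30 bases around each E2F match are shown because their genes fell on different sides of the comparison, with the match in capitals and each sequence written 5′ to 3′ on the strand of its gene. They lie at chr1:241848197-241848226 (plus strand, EXO1), chr7:152676102-152676131 (minus strand, XRCC2), chr3:10026424-10026453 (plus strand, FANCD2) and, for FANCC on the minus strand, at chr9:95317737-95317766 (site a) and chr9:95317863-95317892 (site b).
EXO1: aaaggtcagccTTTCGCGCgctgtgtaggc
XRCC2: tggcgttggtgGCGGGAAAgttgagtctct
FANCD2: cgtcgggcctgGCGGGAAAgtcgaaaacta
FANCC site a: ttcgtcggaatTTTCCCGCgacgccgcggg
FANCC site b: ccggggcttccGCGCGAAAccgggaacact
Of these 4 genes, EXO1 and XRCC2 were called lower, FANCC was called higher and FANCD2 did not pass.

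The BRCA1-BRCA2 axis held 5 genes, of which 4 were called lower and 0 higher, against 26.4% and 24.1% of all genes. At an unadjusted p under 0.05 the edgeR counts were also 4 and 0, and DESeq2 gave the same counts. BARD1, the partner that BRCA1 needs for its ubiquitin ligase activity, stood at 38.5, 40.7 and 39.5 CPM in the controls, in replicate order, and 25.6, 27.0 and 27.2 CPM after silencing. Every silenced sample lay below every control, for a log2 fold change of −0.57 ± 0.053 (SE) with adjusted p = 8.83e-08 in edgeR. The gene spans chr2:214725646-214809711 (GRCh38, GENCODE 29), and its exons overlap no other annotated gene. BRIP1, the helicase FANCJ that binds BRCA1, fell from 29.5, 28.5 and 27.3 CPM to 20.1, 21.04 and 20.2 CPM. Its groups were again separate, with a log2 fold change of −0.48 ± 0.059 (adjusted p = 2.73e-06, edgeR). BRCA1 itself fell from 93.2, 89.1 and 84.9 CPM to 65.3, 73.6 and 67.4 CPM, leaving 77.2% of control (−0.38 ± 0.051 on the log2 scale), and IRF1shRNA replicate 2 was the highest of the silenced samples. PALB2, the bridge between BRCA1 and BRCA2, fell less, from 34.8 ± 0.449 to 30.3 ± 0.512 CPM (−0.20 ± 0.051 on the log2 scale). BRCA2, the tumor suppressor that PALB2 brings to breaks, was the exception. It stood at 84.0, 80.4 and 74.98 CPM in controls and 81.7, 80.5 and 81.6 CPM after silencing, and the 3 silenced values lay within the control range. The interval of its log2 fold change was −0.070 to 0.12.

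End resection and its helicases held 7 genes, of which 3 were called lower, 1 higher and 3 did not pass. The share called lower was 42.9%, against 26.4% of all genes and 36.2% of those in the members' range of levels. EXO1, the exonuclease of long-range resection whose E2F site is shown above, was at 81.6, 83.8 and 80.3 CPM in the controls and at 46.9, 55.1 and 49.0 CPM in the silenced samples, in replicate order. The groups were far apart, and the log2 fold change of −0.71 ± 0.053 had an adjusted p of 5.61e-09 by edgeR, the smallest among the 35 genes. EXO1 spans chr1:241847967-241895148 and shares no exon with another annotated gene. BLM, the RecQ helicase missing in Bloom syndrome (chr15:90717327-90816165), fell from 23.2, 22.9 and 20.5 CPM to 14.4, 15.04 and 14.98 CPM. All silenced samples lay below the controls (−0.58 ± 0.067 on the log2 scale, adjusted p = 1.10e-06 by edgeR). WRN, the RecQ helicase and exonuclease missing in Werner syndrome, moved the other way. It rose from 74.7, 69.7 and 70.5 CPM to 95.1, 102 and 94.5 CPM, with every silenced sample above every control. Its log2 fold change was 0.44 ± 0.046 (adjusted p = 3.50e-07, edgeR).

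Within the MRE11-RAD50-NBN complex, MRE11 was the only subunit called. This nuclease fell from 42.1 ± 1.17 to 36.0 ± 0.976 CPM (−0.23 ± 0.049 on the log2 scale, adjusted p = 8.71e-04 by edgeR). NBN, the subunit that recruits ATM, was at 129 ± 5.75 CPM in controls and 135 ± 8.22 CPM after silencing, with overlapping groups and an interval of −0.037 to 0.17. RAD50, the ATPase of the complex, had a log2 fold change of 0.15 ± 0.082 with an interval of −0.022 to 0.33, and its groups overlapped. Without control replicate 2 the RAD50 value was 0.10, while that of NBN ran from 0.024 to 0.10 with single libraries left out. In GENCODE 29, 90.6% of RAD50's exonic bases also belong to AC116366.3, a same-strand gene model that spans the IRF1 locus as well. That model is not among the gene symbols with counts. RAD50 was also the least abundant of the 35 genes per length, at 0.819 CPM per kb of exon in controls against 5.58 for MRE11 and 26.6 for NBN, so its count is uncertain. RBBP8, which starts resection with MRE11, was at 74.2, 69.2 and 68.4 CPM in controls and 66.1, 78.4 and 66.1 CPM after silencing. IRF1shRNA replicate 2 exceeded all controls and the other two silenced samples lay below them, and the log2 interval was −0.14 to 0.11.

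The genes of strand exchange and its mediators formed the group of 9 genes in which 7 were called lower, 1 higher and 1 did not pass. Of all genes, 26.4% were called lower and 24.1% higher. C1orf112 (FIRRM), which works with FIGNL1 late in recombination, was at 43.0, 39.9 and 39.0 CPM in controls and 28.8, 28.2 and 27.8 CPM after silencing. The groups were clearly apart, with a log2 fold change of −0.52 ± 0.054 and an adjusted p of 3.05e-07 by edgeR. The gene lies at chr1:169662007-169854080, and 24.4% of its exonic bases overlap SCYL3 on the opposite strand, which changed the other way (0.23 on the log2 scale). FIGNL1, an ATPase, fell as well, by less (−0.27 ± 0.040 on the log2 scale, adjusted p = 2.31e-05 by edgeR). RAD54B, a motor protein that assists strand exchange, fell from 14.8, 14.1 and 13.5 CPM to 9.88, 10.2 and 10.2 CPM, with no overlap (−0.49 ± 0.068 on the log2 scale). FSBP shares 63.3% of the exonic bases of RAD54B on the same strand and had a log2 fold change of −0.27, so these counts may not be fully separate. RAD54L, the related motor, fell from 42.5 ± 1.60 to 37.1 ± 1.41 CPM (−0.19 ± 0.051 on the log2 scale).

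RAD51B, RAD51C, RAD51D, XRCC2 and XRCC3 are related proteins that assist strand exchange. Of these, 4 of the 5 were called lower, against 26.4% of all genes. XRCC3 had the deepest decrease, from 17.9 ± 1.10 to 13.3 ± 0.505 CPM (−0.43 ± 0.069 on the log2 scale, adjusted p = 5.02e-05 by edgeR). Almost as many of its exonic bases (45.3%) overlap KLC1 on the opposite strand as do not, and KLC1 had a log2 fold change of −0.066 (adjusted p = 0.356, edgeR). RAD51B, among the scarcest members, had a log2 fold change of −0.35 ± 0.10, and RAD51C of −0.22 ± 0.063. XRCC2 fell from 34.8, 34.5 and 30.5 CPM to 27.5, 30.3 and 28.3 CPM, with the lowest control only just above the highest silenced sample. Without control replicate 2 its adjusted p was 0.0597 by edgeR (log2 fold change −0.19), which did not pass. RAD51D did not pass, at 16.4, 16.1 and 17.4 CPM in controls and 13.1, 16.3 and 14.8 CPM after silencing, where IRF1shRNA replicate 2 lay among the controls (adjusted p = 0.0616, edgeR). Without that library the log2 fold change went from −0.18 to −0.25 with an adjusted p of 0.0119 by edgeR, and without IRF1shRNA replicate 1 it went to −0.10 (adjusted p = 0.311).

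RAD52, which anneals single strands and can take over some tasks of BRCA2, was the member with the largest increase. It was at 6.89, 6.44 and 6.13 CPM in controls and 9.10, 9.21 and 9.39 CPM in silenced samples, which lay close together and above all controls. Its log2 fold change of 0.51 ± 0.076 came with adjusted p = 2.20e-05 in edgeR. The gene lies at chr12:912077-990053, and 6.67% of its exonic bases are shared with the noncoding model AC004803.1.

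**Figure D2:**
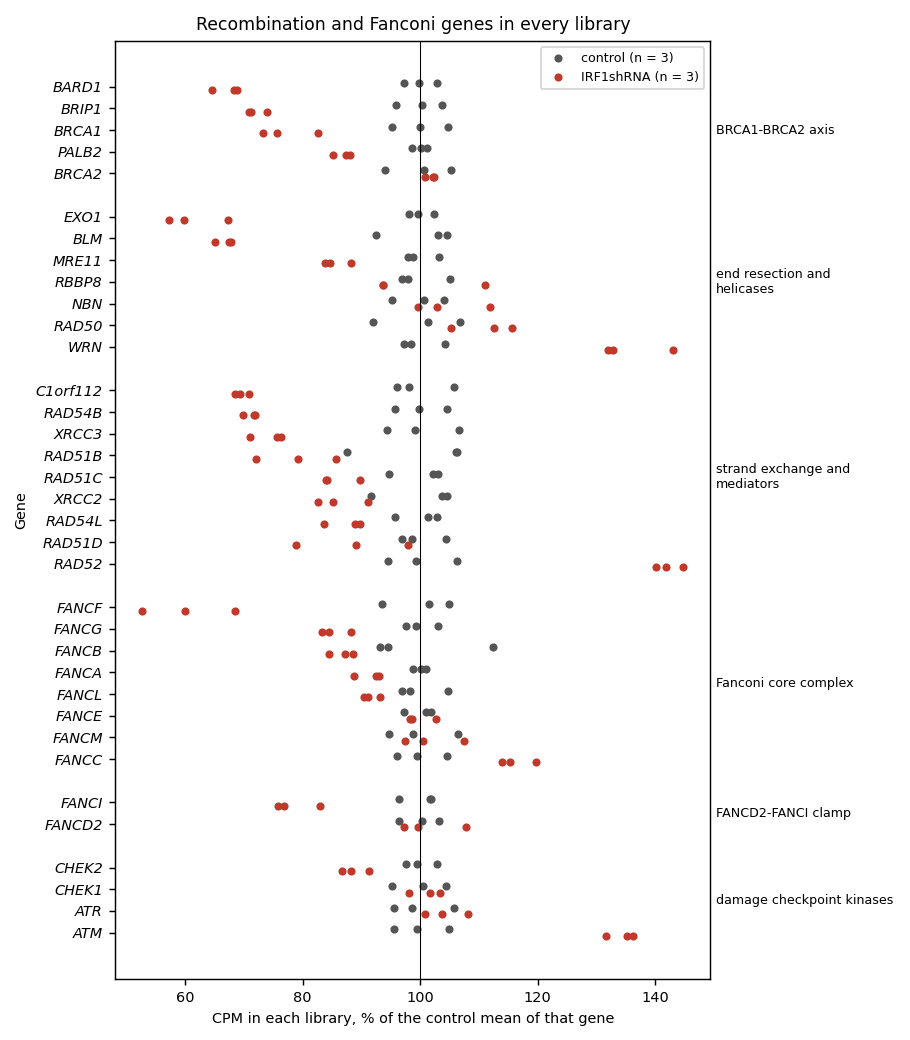
CPM of each of the 35 genes in every library, as a percentage of that gene's control mean (x axis), with control samples in gray and IRF1shRNA samples in red (n = 3 each), ordered by role (y axis). FANCF and EXO1 lie farthest to the left and RAD52, WRN and ATM farthest to the right, with red and gray points apart in all 5.

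The Fanconi core complex held 8 genes, of which 4 were called lower, 1 higher and 3 did not pass. The share called lower was 50%, against 26.4% of all genes and 36.2% of those in the members' range of levels. FANCF, an adaptor that holds the complex together, was at 5.37, 6.02 and 5.83 CPM in controls and at 3.44, 3.03 and 3.93 CPM after silencing. The groups did not overlap, and its log2 fold change of −0.71 ± 0.10 came with adjusted p = 1.34e-05 in edgeR. The value ran from −0.82 to −0.63 when single libraries were left out. The gene lies at chr11:22622890-22625841 and shares no exon with another annotated gene. FANCG, another core subunit, fell from 49.6, 50.4 and 52.4 CPM to 42.9, 42.3 and 44.8 CPM, with separate groups (−0.23 ± 0.046 on the log2 scale). FANCC, whose promoter holds both E2F sites shown above, rose from 34.7, 33.5 and 36.4 CPM to 40.2, 39.7 and 41.7 CPM. Its groups were separate too (0.22 ± 0.051 on the log2 scale, adjusted p = 0.00168 by edgeR).

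The calls of the other core genes were less firm. FANCA, the core subunit most often mutated in Fanconi anemia, was at 44.5, 44.9 and 43.9 CPM in controls and 39.4, 41.3 and 41.1 CPM after silencing, a log2 fold change of −0.13 ± 0.046 with an adjusted p of 0.0264 by edgeR. The call was lost without control replicate 1, control replicate 2 or IRF1shRNA replicate 1 (log2 fold changes of −0.13, −0.12 and −0.11). FANCB, the X-linked core gene, was at 26.4, 22.2 and 21.9 CPM in controls and 20.8, 19.8 and 20.5 CPM after silencing (−0.20 ± 0.072 on the log2 scale). Control replicate 1 was well above the other controls, and without it the value was −0.11 with an adjusted p of 0.180 by edgeR, while without IRF1shRNA replicate 2 or 3 it was −0.18 and −0.21 and also lost the call. Scaling by upper quartile or by library size only left neither FANCA nor FANCB called. FANCL, the ubiquitin ligase of the complex, had separate groups but did not pass, with an interval of −0.28 to 0.023, and 26.6% of its exonic bases overlap VRK2, which fell by 0.83 on the log2 scale. FANCE was at 12.9, 12.4 and 13.0 CPM in controls and 13.1, 12.6 and 12.6 CPM after silencing, and FANCM, the translocase that brings the complex to DNA, at 26.8, 24.9 and 23.8 and 27.1, 24.5 and 25.3 CPM. Both pairs of groups overlapped, with log2 intervals of −0.14 to 0.14 and −0.11 to 0.16.

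The clamp that the core complex marks behaved unequally. FANCI fell from 118, 118 and 112.04 CPM to 89.2, 96.4 and 88.0 CPM, with no overlap, a log2 fold change of −0.35 ± 0.046 and an adjusted p of 5.14e-06 by edgeR. FANCD2, its partner, was at 113, 105 and 109.6 CPM in controls and 106, 118 and 109 CPM after silencing, where IRF1shRNA replicate 2 was the highest of all 6 libraries. The groups overlapped, and the interval of the log2 fold change was −0.077 to 0.12.

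Of the 4 checkpoint kinases, 1 was called higher and 1 lower, near the 24.1% and 26.4% of all genes. ATM, which signals double-strand breaks, rose from 107, 102 and 97.8 CPM to 135, 139 and 138 CPM, with every silenced sample far above every control. Its log2 fold change of 0.43 ± 0.044 came with adjusted p = 3.31e-07 in edgeR. ATR, the kinase of stalled forks, was at 119, 111 and 108 CPM in controls and 114, 122 and 117 CPM after silencing, with overlap and a log2 interval of −0.040 to 0.16, and the log2 fold change ran from 0.031 to 0.10 with single libraries left out. CHEK2, the kinase downstream of ATM, fell from 29.8, 28.3 and 28.9 CPM to 25.1, 26.5 and 25.6 CPM. Its log2 fold change of −0.17 ± 0.056 had an adjusted p of 0.0153 by edgeR, and the call was lost without control replicate 1 (−0.16), without IRF1shRNA replicate 1 (−0.16), under upper quartile scaling (−0.13) and under library size only (−0.12). CHEK1, the kinase downstream of ATR, was at 81.8, 78.8 and 74.6 CPM in controls and 79.8, 81.1 and 76.9 CPM after silencing, and the groups overlapped (interval −0.080 to 0.11).

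Ratios of the counts of partner genes within a library were then compared, because they do not depend on how libraries are scaled. The 8 pairs were chosen after the values above were seen, so they describe these samples. The ratio of WRN to BLM was 3.22, 3.05 and 3.44 in the controls, in replicate order, and 6.59, 6.81 and 6.31 after silencing, a 2.03-fold rise. This ratio therefore moved more than either gene alone, with groups far apart. ATM to ATR went from 0.899, 0.915 and 0.907 to 1.18, 1.14 and 1.18. FANCI to FANCD2 went from 1.05, 1.12 and 1.02 to 0.840, 0.819 and 0.808. BRCA1 to BRCA2 went from 1.11, 1.11 and 1.13 to 0.799, 0.914 and 0.825. These are ratios of counts of genes of unlike length, so a value of 1 does not mark equal levels. Per kb of exon, FANCI was above FANCD2 in controls (22.5 against 13.9 CPM) and after silencing (17.6 against 14.1 CPM). BRCA1 was likewise above BRCA2 in controls (11.4 against 6.66 CPM per kb) and after silencing (8.78 against 6.78). On the log2 scale the mean differences were −0.20 for BARD1 to BRCA1, −0.19 for CHEK2 to CHEK1, −0.29 for MRE11 to NBN and −0.26 for C1orf112 to FIGNL1. The groups did not overlap for any of the 8 pairs, and 56.8% of all single genes tested did not overlap either. An exact two-sided permutation test gave p = 0.1 for each, which is the smallest value 3 against 3 samples allow, and 0.1 after Benjamini-Hochberg adjustment over the 8 pairs. Because the pairs were chosen on these values, neither the separation nor the test is evidence beyond the values themselves.

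**Figure D3:**
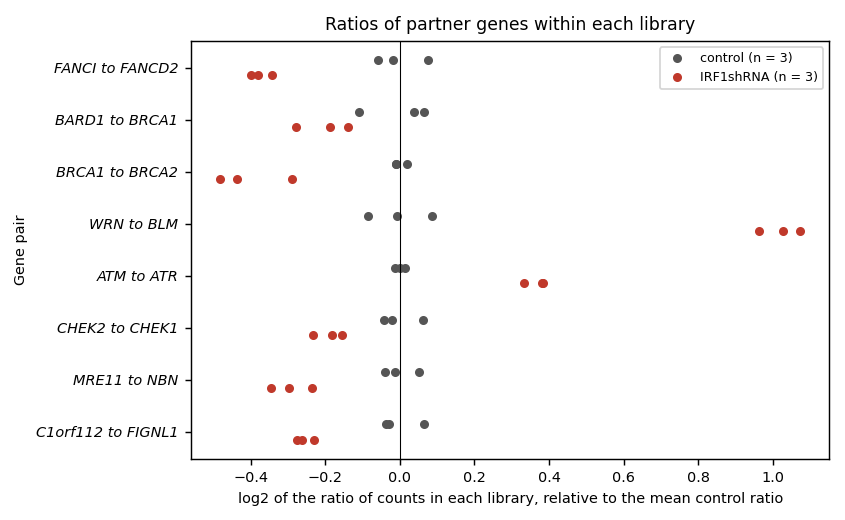
Ratio of the counts of 2 partner genes in each library, as log2 relative to the mean control ratio (x axis), for 8 pairs (y axis), with control samples in gray and IRF1shRNA samples in red (n = 3 each). WRN to BLM lies near 1 on this scale after silencing, and the red and gray points of each pair are apart.

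Levels were compared between members per kb of annotated exon. In controls NBN (26.6 CPM per kb), EXO1 (23.6), FANCI (22.5), FANCG (19.3) and RBBP8 (19.1) were the most abundant per length. The scarcest were RAD50 (0.819 CPM per kb), RAD51B (1.44), RAD51D (1.63), RAD52 (1.86) and FANCF (1.94). After silencing, EXO1 stood at 14.5 CPM per kb, below NBN, CHEK1, FANCI (17.6), RBBP8 (18.99), WRN (18.7) and FANCG (16.5). MRE11 (5.58 CPM per kb), XRCC3 (5.59) and ATM (5.59) were neighbors in the order of control levels that differed by less than their spread between samples, as did RBBP8 and FANCG. Lengths are those of GENCODE 29, not of the annotation the counts were made with, and 7 members share 10% or more of their exonic bases with another gene. Beside the 5 already named, these are FANCA (22.4% with ZNF276, whose log2 fold change was 0.18) and RAD54L (18.0% with LRRC41, −0.13), both on opposite strands. Whether reads were counted by strand is not given in the sources used here, so reads of such pairs may be mixed.

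**Figure D4:**
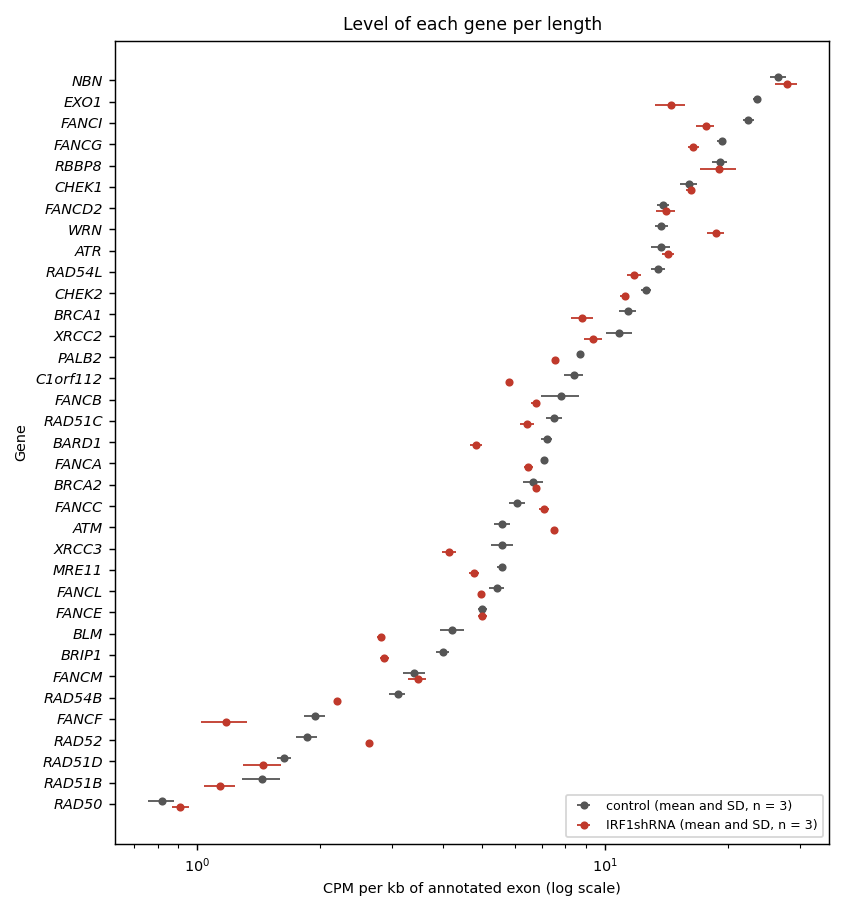
Level of each of the 35 genes (y axis, in order of the control level) in CPM per kb of annotated exon on a log scale (x axis), as mean and SD of 3 control samples (gray) and 3 IRF1shRNA samples (red). Control levels run from 0.819 for RAD50 to 26.6 for NBN, and EXO1 shows the widest gap between the groups among the 5 most abundant genes.

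The remaining genes of the pathway and of other repair routes were listed by function, and their counts stand beside the 24.1% called higher and 26.4% called lower over all genes. Of 57 other recombination and Fanconi genes 56 were tested, with 23 called higher and 13 lower (26 and 7 when scaled by library size only), so that 41.1% were higher and 23.2% lower. ERCC1, a subunit of the nuclease that unhooks crosslinks, rose (0.36 ± 0.041 on the log2 scale), whereas RMI1, the partner of BLM, fell (−0.40 ± 0.043). Among 19 genes of end joining and of the 53BP1-shieldin axis, which holds back resection, 9 (47.4%) were higher and 5 (26.3%) lower. TP53BP1 (0.41 ± 0.042 on the log2 scale) and the ligase LIG3 (0.44 ± 0.050) rose, while POLQ, the polymerase of a backup joining route, fell (−0.37 ± 0.045). Leaving out control replicate 2 or IRF1shRNA replicate 1 left 3 lower genes in that list.

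Of 7 mismatch repair genes, 5 (71.4%) were higher and 0 lower, against 24.1% and 26.4% of all genes. At an unadjusted p under 0.05 the edgeR counts were the same, as were those of DESeq2. The largest log2 fold change in this list was 0.26. Those called higher included MSH3 (0.20 ± 0.053 on the log2 scale) and MSH6 (0.16 ± 0.048), subunits of the complexes that recognise mismatches. Without control replicate 2, 3 genes were called higher there. Of 18 nucleotide excision repair genes tested, 7 (38.9%) were higher and 3 lower, where 29.8% of all genes in the members' range of levels were higher. That range is not matched to this list, which spanned 8.42 to 393 CPM. CETN2 (0.77 ± 0.048 on the log2 scale) and UVSSA (0.44 ± 0.056) rose, and the damage sensor DDB2 (−0.65 ± 0.062) fell.

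Transcripts of dividing cells were read beside the 35 genes. Of 30 S phase genes, 20 were lower and 2 higher, against 16 and 4 by library size only and 17 and 4 by upper quartile scaling, and their summed level was 3383 to 3438 CPM in controls and 2765 to 2863 CPM after silencing. Ranked by p-value, the list was led by UHRF1 (−0.86 ± 0.041 on the log2 scale), which maintains DNA methylation, by the licensing factor CDC6 (−0.72 ± 0.044) and by the ribonucleotide reductase subunit RRM2 (−0.61 ± 0.044). Of 30 genes of G2 and mitosis, 13 were lower, 4 higher and 13 not called, led by MYBL2 (−1.04 ± 0.042 on the log2 scale), CDK1 (−0.71 ± 0.046) and PLK1 (−0.59 ± 0.045), with a summed level of 7862 to 8081 CPM in controls and 7031 to 7529 CPM after silencing. The share called lower was 66.7% for the S phase list and 43.3% for the G2 and mitosis list, against 36.2% of all genes in the members' range of levels and 26.4% of all genes. The members' range, 4.60 to 132 CPM, is not matched to these lists, which spanned 14.0 to 409 and 0.516 to 818 CPM. The summed level of the 35 recombination and Fanconi genes was 1608 to 1703 and 1529 to 1615 CPM, where the groups overlapped. The part of the cell cycle genes in the decrease among the 35 genes was not tested. These lists were chosen with earlier results of the same samples known, and the differences between lists were not tested.

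**Figure D5:**
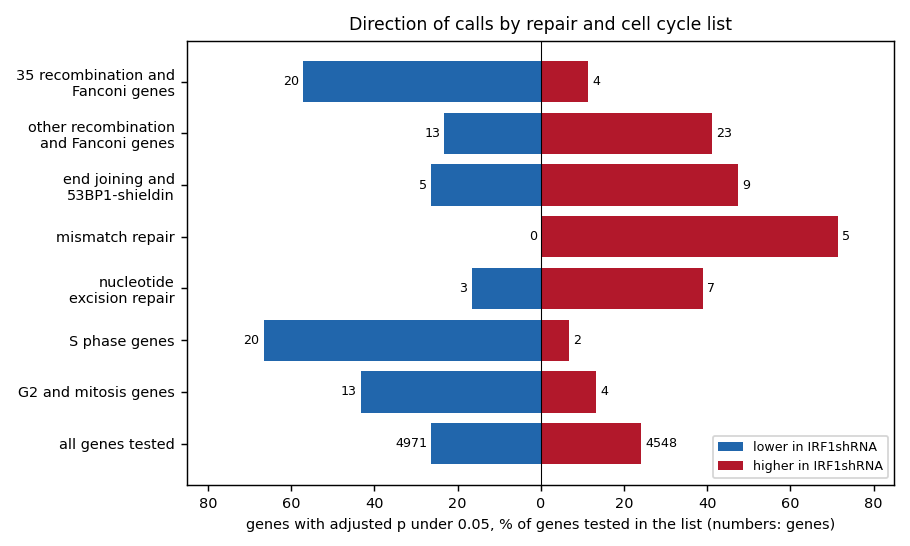
Share of the tested genes of each list called lower (blue, to the left) or higher (red, to the right) in IRF1shRNA samples at an adjusted p under 0.05, in percent (x axis), by list (y axis), with the number of genes beside each bar. The 35 recombination and Fanconi genes (20 lower, 4 higher) and the S phase genes (20 and 2) lean to the left, while the other recombination genes (13 and 23) and mismatch repair (0 and 5) lean to the right.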

How the data were processed

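RNA-seq of 3 control and 3 IRF1shRNA samples was analysed from the raw counts per gene symbol that the authors deposited, without normalization. Per the labels, total RNA was extracted with Trizol and libraries were made with a TruSeq Stranded mRNA kit, and the submitters' processing notes name CASAVA 1.8.2, STAR 2.7.9a, featureCounts, DESeq2 1.24.0 and build GRCh38.p7. The annotation release, the strand setting and the handling of read mates are not given in the sources used here. Between 72.1% and 75.2% of the count values from 2 to 11 in each library were even, so mates may have been counted singly, and halved counts were run as an alternative.

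Genes passing filterByExpr (minimum count 10) were tested with edgeR 4.0.16 (R 4.3.3), using TMM scaling, the quasi-likelihood test, group as the single factor and Benjamini-Hochberg adjustment over 18851 genes. SE is the size of the log2 fold change divided by the square root of F, and intervals are at 95%. All 35 members passed the filter. Their smallest count in any library was 168, where 3 counts correspond to 0.0182 to 0.0540 CPM, a limit that covers counting error only. Exon lengths and overlaps came from GENCODE 29 and promoters from RefSeq. The test was checked on simulated data for this comparison (18851 genes), where 50.0% of 38 genes at 1 CPM or more changed 1.2-fold and 96.7% of 30 changed 1.5-fold were recovered. Only 50 genes were changed at each size there, whereas 50.5% of genes were called in the data, so these shares may not carry over.

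Alternatives were DESeq2 1.42.0, other scalings, other filters, halved counts, a replicate block, a threshold of 0.01 and leaving out each replicate. Values per library were given for members past 0.5 on the log2 scale, for the 3 smallest adjusted p-values in each role and for members whose call or direction changed in an alternative, and up to 3 genes were named from each other list, beside FIGNL1. Some genes that this rule would name are not reported here. Members, lists and tests were chosen with earlier results of these data known.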

Additional observations from a re-analysis of the deposited data

How the results depend on the processing

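The 20 lower and 4 higher calls among the 35 genes gave 20 and 4 under DESeq2, DESeq2-type size factors in edgeR, a minimum of 1 CPM in 3 samples and halved counts, with the same 24 genes, and also without a filter, where FANCA was exchanged for RAD51D. They were 17 and 4 under upper quartile scaling, library size only and a threshold of 0.01. Leaving out single libraries gave 17 to 20 lower and 4 higher genes. With the replicate block the counts were 20 and 4, with the same 24 genes called, and 4972 lower and 4490 higher over all genes. Deviations of same-numbered samples correlated only weakly, at −0.0759, 0.0518 and 0.106, so the numbers were not taken as pairs, although 2 of 3 controls correlated best with their own number. The median log2 fold change over all genes, −0.0024, became 0.041 with upper quartile scaling and 0.049 with library size only.

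Of the 11 genes that did not pass, 6 changed sign in at least 1 alternative and 5 (NBN, RAD50, ATR, FANCL and RAD51D) in none. FANCE, at −0.0015, was at 0.0015 under DESeq2, 0.0054 with DESeq2-type size factors, 0.042 under upper quartile scaling, 0.050 under library size only, 0.023 with at least 1 CPM, 0.0045 with halved counts and −0.024 to 0.015 with single libraries left out. RBBP8, at −0.011, was at 0.032, 0.038 and 0.012 under upper quartile scaling, library size only and the 1 CPM filter, and at −0.090 to 0.029 with single libraries left out. In the latter fits BRCA2 ran from −0.013 to 0.063, CHEK1 from −0.016 to 0.045, FANCD2 from −0.017 to 0.051 and FANCM from −0.014 to 0.074. The cause was not tested.

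Among the other lists, S phase genes called higher went from 2 to 4 under upper quartile scaling and library size only, and other recombination genes called lower from 13 to 7 under library size only. With single libraries left out, end joining genes called lower ran from 3 to 5 and mismatch repair genes called higher from 3 to 5. In the simulated data, changes of 1.2-fold (0.26 on the log2 scale) were recovered only in part. Few genes were changed there, so that share sets no limit of detection for the present data. Of the 20 lower calls 9 are smaller than 1.2-fold (PALB2, MRE11, RAD51C, XRCC2, RAD54L, FANCA, FANCB, FANCG and CHEK2), as is 1 of the 4 higher calls (FANCC). Among these, PALB2, MRE11, RAD51C, RAD54L, FANCG and FANCC kept their calls in every alternative fit. XRCC2, FANCA, FANCB and CHEK2 lost theirs in some.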
